A study of Mus musculus with 4 samples.

Results

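The genes described here encode receptor chains for IL-2, IL-7, IL-12, IL-15, IL-18 and IL-10. They are Il7r, Il2ra, Il2rb, Il2rg, Il15ra, Il12rb1, Il12rb2, Il18r1, Il18rap and Il10ra. They were taken by symbol, whatever their values, and make up 10 of the 27998 genes in the count tables; all 10 were present. The study followed the antiviral CD8+ T cell response of cells with and without Bcl-3, an atypical IκB protein that works with NF-κB subunits in the nucleus. Mixed bone marrow chimeras were made by giving sub-lethally irradiated Rag1-/- hosts a mixture of WT (CD45.1) and Bcl3-/- (CD45.2) marrow on a C57BL/6 background. At least 6 weeks later the mice were infected with LCMV Armstrong, a strain that causes an acute infection, and on day 8 spleen CD8+ T cells that bound the H-2Db GP33 tetramer were sorted by CD45 allele. Each of 2 chimeras gave a WT and a Bcl3-/- library, so each genotype had 2 libraries and every host lacked its own T and B cells. The 2 libraries of a chimera came from the same animal, and WT and Bcl3-/- cells also differed in the CD45 allele used to sort them. Libraries were assigned to a chimera by their replicate number.

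Cytokine receptors of the common gamma chain family pair a cytokine-specific chain with the gamma chain (Il2rg) and signal through JAK1, JAK3 and STAT5. IL-7 keeps naive and memory T cells alive, and loss of its receptor alpha chain (IL-7Rα, CD127) from most effector CD8+ T cells with retention on a minority is used to recognize memory precursors. IL-12 and IL-18 are inflammatory cytokines from myeloid cells that together elicit IFN-γ from effector T cells: IL-12 signals through TYK2, JAK2 and STAT4, and IL-18 through MyD88 and NF-κB.

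The tables gave counts of unique molecular identifiers (UMIs), each a captured transcript. The libraries held 21193300 (WT, chimera 1), 20358780 (WT, chimera 2), 22922219 (Bcl3-/-, chimera 1) and 22672343 (Bcl3-/-, chimera 2) UMIs. Barcodes were kept as cells from 500 genes upward and up to 10% mitochondrial UMIs, which gave 4941, 8092, 5366 and 6494 cells in the same order, with medians of 3571, 2019, 3620.5 and 2948 UMIs per cell. The WT library of chimera 2 was therefore the shallowest per cell. Any pair of libraries shared between 37 and 63 cell barcodes, where 36.0 to 71.3 would be shared if barcodes were drawn independently. Levels are given below as CPM, the UMIs of a gene per 1000000 UMIs of the cells named, and shares of cells after each cell was thinned to 1000 UMIs, which left out 25, 223, 15 and 19 cells.

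The sort was checked against markers. All 5 CD8 T cell markers were detected in each library, with summed levels of 5648, 5393, 5971 and 6016 CPM and Cd8b1 as the most abundant of them in all 4 libraries. Other cells were present too: clusters led by B cell genes held 2.13%, 1.48%, 2.50% and 1.96% of the cells, and clusters led by myeloid genes 2.43%, 1.80%, 4.16% and 3.31%. Ncr1, which marks NK cells, was at 0.9, 0.9, 0.3 and 1.0 CPM, and Foxp3, which marks regulatory T cells, at 0.4, 0.3, 0.2 and 0.6 CPM. Bcl3 itself was read at 33.2 and 108 CPM in WT and at 27.6 and 86.6 CPM in Bcl3-/- cells of chimeras 1 and 2. Transcripts from the Bcl3 locus were thus still counted in both Bcl3-/- libraries. Tags come from the 3′ end of a transcript, which may lie outside the disrupted part of the gene, so these values check neither the deletion nor the labels.

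Cells were clustered within each library without the 10 receptor genes, and clusters were named from marker lists. A small group carried Tcf7, Ccr7, Id3 and Dapl1, genes of memory precursor and naive T cells, and is called the Tcf7 Ccr7 group; it held 351, 437, 124 and 300 cells. The terminal effector-like group (Gzma, Cx3cr1, Klrg1, Zeb2) held 349, 1133, 1189 and 1015 cells, or 7.06%, 14.002%, 22.2% and 15.6% of each library. The cycling-like group held 817, 1036, 529 and 688 cells and the interferon-stimulated group 515, 452, 382 and 536. The remaining T cell clusters had no list of their own, are called unnamed, and held 2592, 4658, 2721 and 3519 cells. Borders between groups differed among libraries. In the Bcl3-/- library of chimera 1 an unnamed cluster of 761 cells was led by Tcf7 and Il7r, and its Tcf7 Ccr7 cluster had Cd4 among its leading genes. Cd4 was higher in the Tcf7 Ccr7 group than in any other T cell group in all 4 libraries, at 17.6 and 23.9 CPM in WT and 49.7 and 19.2 CPM in Bcl3-/- cells, against at most 3.32 CPM elsewhere. The 7 markers of CD4 and regulatory T cells summed to 197, 195, 215 and 189 CPM there, with Tnfrsf4 the most abundant, against 10.1 to 58.6 CPM in the other T cell groups, and Foxp3 was at 4.0, 0, 2.0 and 6.4 CPM. Values by group are descriptions, since the groups were made from the same cells.

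On the mouse genome (GRCm38, GENCODE vM21 annotation) Il18r1 lies on chr1:40465552-40500854 and Il18rap on chr1:40515362-40551705, both on the plus strand and 14508 bases apart. Il2ra (chr2:11642807-11693193, plus) and Il15ra (chr2:11705290-11734317, plus) are neighbours as well, 12097 bases apart. Il7r is at chr15:9505788-9530176 and Il2rb at chr15:78479256-78495271, both on the minus strand. Il2rg is at chrX:101264378-101268255 (minus), Il12rb1 at chr8:70808449-70821424 (plus), Il12rb2 at chr6:67291318-67376188 (minus) and Il10ra at chr9:45253837-45269149 (minus). All 10 are protein-coding genes. Of them, Il2ra, Il2rg and Il10ra overlap another annotated gene on the same strand, so reads there could have been split or dropped.

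The bases just upstream of the IL-18 receptor pair are shown because these neighbouring genes are described together below and Bcl-3 acts through NF-κB sites. They are from RefSeq (GRCm38.p6), plus strand, 5′ to 3′; capitals would mark a match on either strand to the κB core (GGG, any 5 bases, CC), the STAT core (TTCNNNGAA) or the T-box core (GGTGTG), and neither sequence has one, though another annotated start of Il18r1 does, as given below. For Il18r1 only the bases after the last exon of Il1rl1, the IL-33 receptor gene that ends in this window, are printed (chr1:40465416-40465551).
Il18r1: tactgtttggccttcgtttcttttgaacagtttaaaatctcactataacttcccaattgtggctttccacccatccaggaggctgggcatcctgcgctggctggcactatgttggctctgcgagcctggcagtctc
Il18rap: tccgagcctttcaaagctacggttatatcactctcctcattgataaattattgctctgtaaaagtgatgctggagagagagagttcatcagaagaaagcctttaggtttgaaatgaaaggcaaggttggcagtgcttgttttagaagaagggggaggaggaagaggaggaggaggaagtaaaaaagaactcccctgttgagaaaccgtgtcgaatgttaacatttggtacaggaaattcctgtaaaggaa
The Il18rap sequence is chr1:40515112-40515361. Over all 32851 promoter sequences of 250 bases, 45.8% held the κB core, 7.02% the STAT core and 16.3% the T-box core. Promoters were available for 7 of the 10 genes. That of Il2ra held the κB core as 2 overlapping matches (GGGAATCCCC and GGAATCCCCC, from bases -201 and -200 before the start), that of Il7r held the STAT core at base -142 (TTCAGGGAA), and that of Il12rb2 held it at base -123 (TTCTCAGAA). The T-box core was in that of Il2rg at base -231 and, on the other strand, in that of Il2ra at base -120. Of the other annotated starts of Il18r1, the third held a κB core at base -58 (GGCGGTGCCC) and STAT cores at bases -219 and -152, and another held a T-box core. A further start of Il15ra held a κB and a T-box core. These matches are letters in a window and no binding was measured. The Il7r window (chr15:9529877-9530126) precedes the RefSeq start of that gene but lies inside the gene as annotated above.

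Il7r, the IL-7 receptor alpha chain, was low in most cells and highest in the Tcf7 Ccr7 group. Its level over all cells was 46.9 and 31.5 CPM in WT and 44.2 and 24.7 CPM in Bcl3-/- cells of chimeras 1 and 2. The genotypes overlapped, and both libraries of chimera 1 were above both of chimera 2. In the Tcf7 Ccr7 group it reached 129 and 112 CPM in WT and 81.6 and 102 CPM in Bcl3-/- cells, so both WT libraries were above both Bcl3-/- libraries there. The log2 difference was −0.66 in chimera 1 and −0.14 in chimera 2. Without the replicate block the log2 fold change was −0.37 ± 0.19 (SE) and did not pass (edgeR adjusted p = 0.642). In the Bcl3-/- library of chimera 1 a cluster led by Tcf7 and Il7r stayed outside this group, as given above. Relative to the other T cell clusters of the same library, the Il7r log2 ratio of the Tcf7 Ccr7 group was 1.62 ± 0.59 (SD, n = 4 libraries), and all 4 libraries were above 0. The Bcl3-/- library of chimera 1 had the smallest ratio, 0.84. CD4 T cell markers were also highest in this group, as given above; without the 0, 8, 1 and 2 of its cells that had a Cd4 and no Cd8a or Cd8b1 UMI the ratio was 1.63, and the part of other CD4 T cells in it was not tested.

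Cycling cells had the lowest Il7r level in 3 of 4 libraries, the exception being the Bcl3-/- library of chimera 2, where terminal effector-like cells were lower. In cycling cells it was 16.8 and 11.4 CPM in WT and 14.3 and 9.25 CPM in Bcl3-/- cells, a log2 ratio of −1.81 ± 0.10 (SD, n = 4). The order of the group means, from the Tcf7 Ccr7 group through unnamed (0.46 ± 0.43), interferon-stimulated (0.15 ± 0.21) and terminal effector-like (−0.78 ± 0.79) to cycling cells, was not firm: the library values of each neighbouring pair of groups overlapped. After thinning, 12.5%, 10.0%, 8.13% and 10.7% of Tcf7 Ccr7 cells had an Il7r UMI. In B cell-like cells, which show how much free RNA enters droplets, the shares were 0.952%, 1.79%, 0% and 0.787%, with 0 of 134 cells allowing up to 2.72% (exact 95% interval, counting error only).

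In terminal effector-like cells Il7r was 50.1 and 27.9 CPM in WT and 25.0 and 8.65 CPM in Bcl3-/- cells. The Bcl3-/- value was the lower of the pair in each chimera, and no Bcl3-/- library reached a WT library. The log2 fold change (Bcl3-/- over WT) was −1.04 ± 0.40 (SE) without the replicate block, where the gene did not pass (edgeR adjusted p = 0.359). With the chimera as replicate block it was −1.28 ± 0.23 and passed (edgeR adjusted p = 0.00831). These sums were small, 54, 60, 99 and 23 UMIs, and single libraries decided the size. Without the block, the fold change was −0.54 (edgeR adjusted p = 0.871) when the Bcl3-/- library of chimera 2 was left out, −0.62 (edgeR adjusted p = 0.224) without the WT library of chimera 1, −1.54 (edgeR adjusted p = 3.04e-06) without that of chimera 2, and −2.14 (edgeR adjusted p = 0.0381) without the Bcl3-/- library of chimera 1. When the 4 libraries were clustered together it was −0.50 (edgeR adjusted p = 0.826).

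The share of cells with an Il7r UMI and no Klrg1 UMI is the transcript counterpart of the IL-7Rα-high, KLRG1-low gate for memory precursors. After thinning, 4.39% and 2.97% of WT and 3.97% and 2.28% of Bcl3-/- T cell cluster cells were of this kind in chimeras 1 and 2. In each chimera the Bcl3-/- share was the lower, but the genotypes overlapped. The means were 3.68% ± 1.00 and 3.13% ± 1.19 (SD, n = 2 each), a difference of −0.554 points, and a 2-sided exact permutation test gave p = 0.667, where 2 against 2 libraries cannot go below 0.33. That test ignores that the 2 libraries of a chimera share an animal, and 2 pairs are too few for a paired exact test to pass. Within each chimera the Bcl3-/- share was also the lower without thinning, after thinning to 2000 UMIs, over all cells and without the Cd4+ Cd8- cells. Some of these gaps were close to none. After thinning to 2000 UMIs the shares in chimera 1 were 6.65% in WT and 6.62% in Bcl3-/- cells. Without thinning those in chimera 2 were 5.39% and 5.23%. The chimeras differed more than the genotypes did within them, and leaving out 1 library, which breaks a pair and brings the gap between chimeras into the contrast, moved the unpaired difference between −1.40 and 0.288 points (−1.40 without the Bcl3-/- library of chimera 1, −1.26 without the WT library of chimera 2, 0.154 without the WT library of chimera 1 and 0.288 without the Bcl3-/- library of chimera 2). Cells with Klrg1 and no Il7r UMI made up 13.9% and 14.02% in WT and 20.7% and 17.9% in Bcl3-/- cells, without overlap. Il7r was thus detected in few cells of either kind: 4.47%, 1.77%, 2.201% and 1.63% of cells with a Klrg1 UMI had one, against 5.14%, 3.47%, 5.03% and 2.79% of cells without.

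**Figure D1:**
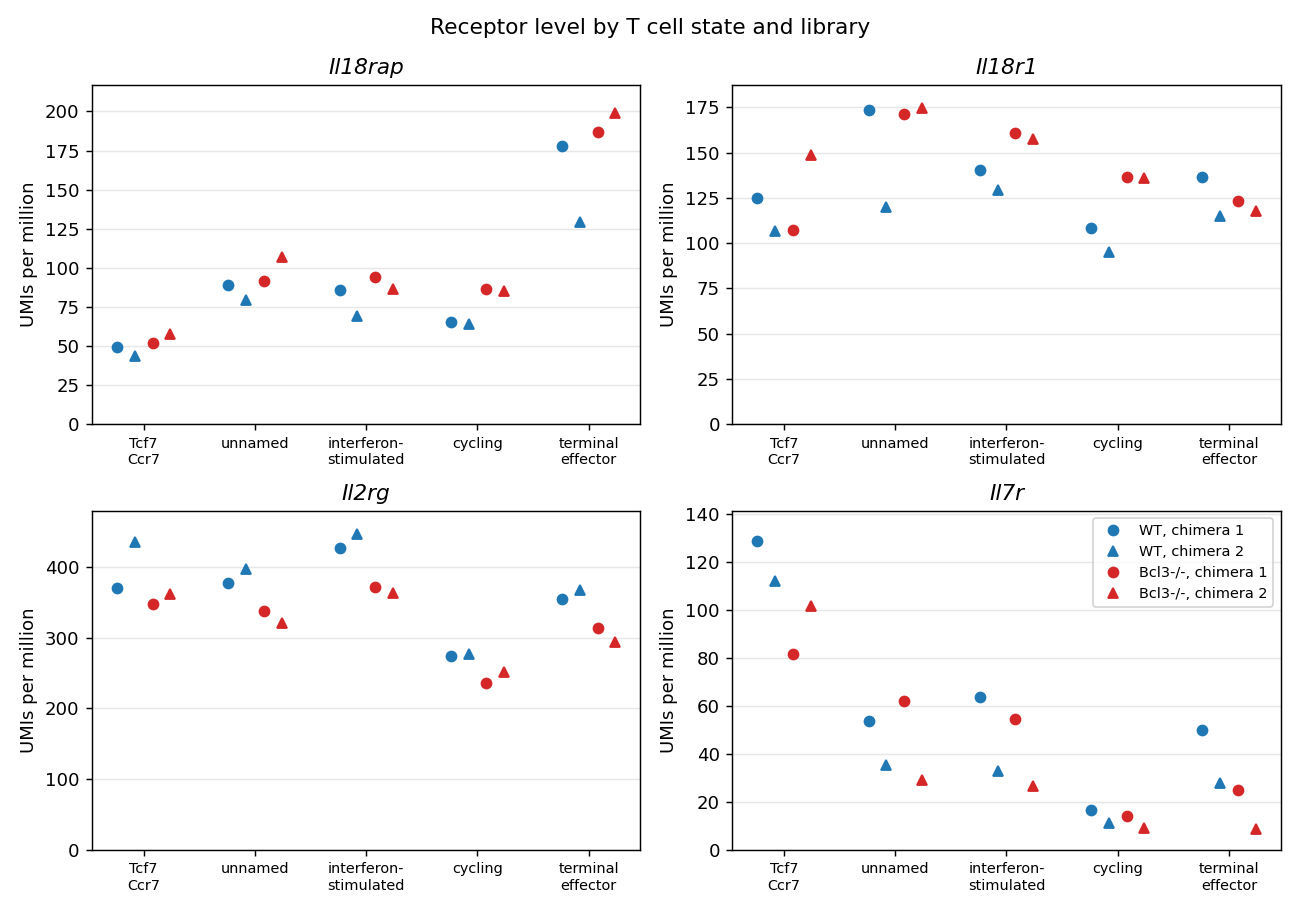
Levels of Il18rap, Il18r1, Il2rg and Il7r (y axis, CPM, starting at 0) in the 5 T cell groups (x axis); each point is a library, blue for WT and red for Bcl3-/-, circles for chimera 1 and triangles for chimera 2. Il18rap stands highest in terminal effector-like cells, between 129 and 199, Il7r stands highest in the Tcf7 Ccr7 group, and red points lie below blue points for Il2rg in all 5 groups.

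Il2rg, the gamma chain shared by the receptors for IL-2, IL-7 and IL-15, was at slightly lower levels in Bcl3-/- cells. Over all cells it was 344 and 359 CPM in WT and 309 and 301 CPM in Bcl3-/- cells, and the genotypes did not overlap. The same held in each of the 5 T cell groups, where both chimeras gave the lower value to Bcl3-/- cells. The difference over all cells did not pass (log2 fold change −0.22 ± 0.10, SE; edgeR adjusted p = 0.332, and 0.0579 with the replicate block). In T cell clusters the log2 fold change was −0.22 ± 0.07 (SE) with the replicate block and passed (edgeR adjusted p = 0.0256), but did not without it (−0.22 ± 0.10, edgeR adjusted p = 0.376). Both calls with the block turned when cells with a Cd4 and no Cd8a or Cd8b1 UMI were left out. Il2rg then did not pass in T cell clusters (edgeR adjusted p = 0.0583) and passed over all cells (edgeR adjusted p = 0.0406). In the unnamed clusters it was −0.26 ± 0.08 with the replicate block (edgeR adjusted p = 0.0200), and −0.25 ± 0.11 without it (edgeR adjusted p = 0.467). The change was small in size, and across groups Il2rg varied little. Cycling cells were the lowest, with a log2 ratio to the other T cell clusters of −0.47 ± 0.07 (SD, n = 4), and interferon-stimulated cells the highest, with 0.27 ± 0.03. B cell-like clusters, which also use this chain, held 338 to 395 CPM.

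Il2rb, the beta chain that receives IL-2 and IL-15, was nearly even. Its level was 192 and 225 CPM in WT and 190.1 and 217 CPM in Bcl3-/- cells, with overlapping genotypes and higher values in chimera 2. The log2 fold change was −0.05 ± 0.10 (SE; edgeR adjusted p = 0.856). Mean log2 ratios of the 5 T cell groups ran from −0.18 ± 0.30 in terminal effector-like to 0.11 ± 0.09 in unnamed cells (SD, n = 4), with the Tcf7 Ccr7 group below 0 in all 4 libraries (−0.17 ± 0.06) and the unnamed clusters above 0 in all 4. Between 17.5% and 21.0% of thinned T cell cluster cells had an Il2rb UMI, against 1.79% to 5.51% of B cell-like cells.

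Il2ra, the alpha chain (CD25) that makes the IL-2 receptor high-affinity, was near the limit of detection. It was 6.0 and 7.9 CPM in WT and 7.6 and 8.8 CPM in Bcl3-/- cells, from 122, 152, 165 and 190 UMIs, with overlapping genotypes. After thinning, 0.648% to 1.09% of T cell cluster cells had an Il2ra UMI, against 0% to 0.893% of B cell-like cells, so its share cannot be told from background. In the Tcf7 Ccr7 group it rested on 4, 1, 3 and 7 UMIs and was not tested there.

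Il15ra, which presents IL-15 to neighbouring cells, was 17.1 and 16.3 CPM in WT and 18.9 and 19.7 CPM in Bcl3-/- cells. Both Bcl3-/- libraries were above both WT libraries, yet the difference did not pass (log2 fold change 0.19 ± 0.11, SE; edgeR adjusted p = 0.477). It was low in the Tcf7 Ccr7 group in all 4 libraries (log2 ratio −0.76 ± 0.47, SD) and above 0 in interferon-stimulated cells in all 4 (0.44 ± 0.21).

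**Figure D2:**
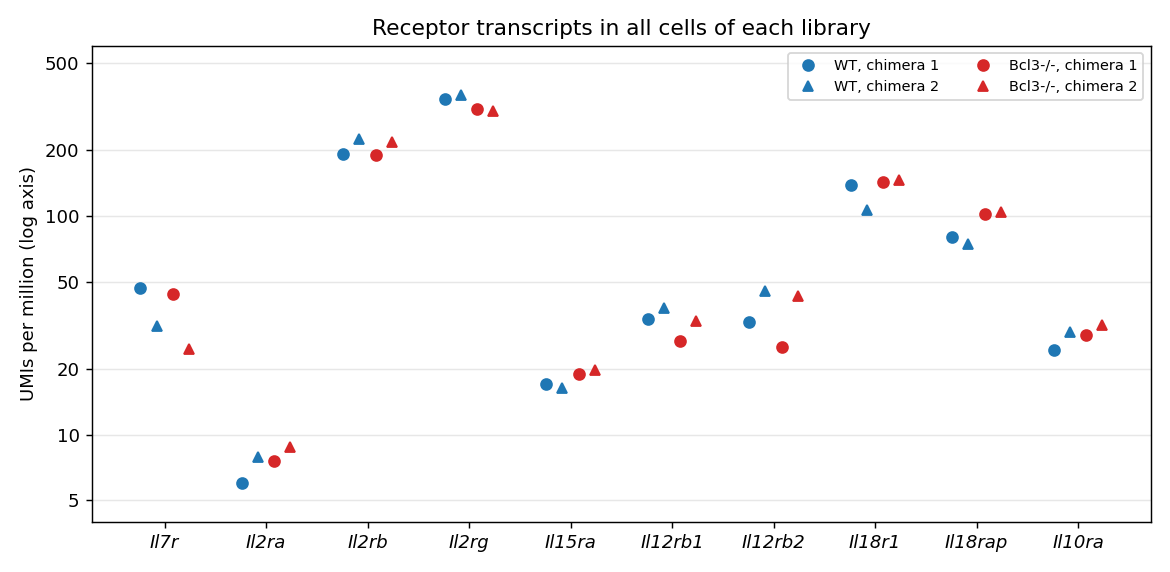
Level of each receptor gene over all cells (y axis, CPM on a log axis) for the 10 genes (x axis); each point is a library, blue for WT and red for Bcl3-/-, circles for chimera 1 and triangles for chimera 2. The genotypes separate for Il18rap, Il18r1, Il15ra, Il2rg and Il12rb1, and Il7r, Il12rb2, Il2rb, Il10ra and Il2ra separate by chimera instead. Some gaps are narrow: Il18r1 differs by log2 0.05 within chimera 1, and Il2ra is close between chimeras. The share of all genes that separate in these ways was not counted.

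The IL-12 receptor chains were both low and both highest in interferon-stimulated cells. Il12rb1, the chain shared with the IL-23 receptor, was 34.0 and 38.0 CPM in WT and 26.8 and 33.0 CPM in Bcl3-/- cells. Both Bcl3-/- libraries were below both WT libraries, although the upper Bcl3-/- and lower WT values were close. Over all cells it did not pass (log2 fold change −0.29 ± 0.10, SE; edgeR adjusted p = 0.270, and 0.0589 with the replicate block). In the unnamed clusters it was 37.1 and 41.97 CPM in WT and 29.5 and 32.5 CPM in Bcl3-/- cells, and passed with the replicate block (−0.37 ± 0.11, SE; edgeR adjusted p = 0.0176) but not without it (−0.37 ± 0.10; edgeR adjusted p = 0.299).

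Across groups, Il12rb1 reached 49.98, 53.6, 51.7 and 55.8 CPM in interferon-stimulated cells of the WT and then the Bcl3-/- libraries. All 4 libraries were above the other T cell clusters there, with a log2 ratio of 0.68 ± 0.23 (SD, n = 4). It was lower in terminal effector-like cells in all 4 (−0.60 ± 0.38). Il12rb2, the chain that docks STAT4, had a ratio of 0.52 ± 0.23 in interferon-stimulated cells, above 0 in all 4 libraries, and −0.30 ± 0.17 in terminal effector-like cells, below 0 in all 4. The Il12rb2 level over all cells was 32.8 and 45.3 CPM in WT and 25.1 and 42.9 CPM in Bcl3-/- cells. It separated by chimera and not by genotype, with a log2 difference of chimera 2 over chimera 1 of 0.62, and the genotype difference did not pass (log2 fold change −0.22 ± 0.22, SE; edgeR adjusted p = 0.687).

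The IL-18 receptor chains had the largest share of detected cells beside Il2rb and Il2rg. Over all cells Il18rap was higher in Bcl3-/- cells of both chimeras, and Il18r1 mainly in those of chimera 2. Il18rap, the accessory chain needed for signalling, was 80.4 and 74.7 CPM in WT and 102 and 105 CPM in Bcl3-/- cells. The genotypes were well apart over all cells, and the Bcl3-/- value was the higher in both chimeras in each of the 5 T cell groups. In cycling cells the log2 difference was 0.40 in chimera 1 and 0.41 in chimera 2. Elsewhere it was larger in chimera 2. For chimeras 1 and 2 it was 0.06 and 0.41 in the Tcf7 Ccr7 group and 0.07 and 0.62 in terminal effector-like cells. In unnamed cells it was 0.04 and 0.43, and in interferon-stimulated cells 0.13 and 0.33. The log2 fold change over all cells was 0.40 ± 0.07 (SE) with the replicate block and passed (edgeR adjusted p = 0.00271), but did not without it (0.40 ± 0.09; edgeR adjusted p = 0.135). In T cell clusters it was 0.41 ± 0.08 with the replicate block (edgeR adjusted p = 4.64e-05), and 0.41 ± 0.09 without it (edgeR adjusted p = 0.169).

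Of the 10 genes, Il18rap had the highest mean ratio in terminal effector-like cells. In those cells it was 178 and 129 CPM in WT and 187 and 199 CPM in Bcl3-/- cells, against 49.6 and 43.6 CPM in WT and 51.7 and 57.7 CPM in Bcl3-/- cells of the Tcf7 Ccr7 group. The log2 ratios to the other T cell clusters were 1.02 ± 0.14 and −0.95 ± 0.12 (SD, n = 4), with every library above 0 in the first and below 0 in the second. The summed level of the NK cell markers was also highest, among the T cell groups, in terminal effector-like cells: the 7 markers, all detected, came to 840, 850, 659 and 711 CPM there, with Klrk1 the most abundant, against 199 to 465 CPM in the other T cell groups. Ncr1 was at 3.71, 4.65, 1.77 and 4.14 CPM in terminal effector-like cells, from 4, 10, 7 and 11 UMIs, and at 8.55 CPM (8 UMIs) in the Tcf7 Ccr7 group of the Bcl3-/- library of chimera 2. Effector CD8+ T cells also express Klrk1, and the part of NK cells in the Il18rap level was not tested. Thinned shares were 15.8%, 12.7%, 16.2% and 19.5% of terminal effector-like cells, against 1.90%, 0.893%, 4.48% and 2.36% of B cell-like cells.

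The share of terminal effector-like cells differed between the genotypes of each chimera in the same direction as Il18rap. At resolution 0.8, within each genotype, the library with the larger share had the lower Il18rap level over all cells. In WT this turned at resolution 1.2 and with the libraries clustered together, where the library with the larger share had the higher level. The terminal effector-like group held more of the cells in the Bcl3-/- library of each chimera (22.2% against 7.06%, and 15.6% against 14.002%). The amount depended on the clustering. At resolution 1.2 the shares were 18.9% against 15.1% and 11.5% against 10.4%. With the libraries clustered together they were 11.6% against 6.31% and 9.82% against 6.09%. With the receptor genes among the variable genes they were 21.8% against 9.29% and 16.8% against 13.7%. At the resolution of 0.8 used elsewhere the 8 terminal effector markers summed to 1456 and 1821 CPM in WT and 2593 and 2645 CPM in Bcl3-/- T cell clusters. Within the unnamed clusters the Il18rap log2 fold change was 0.22 ± 0.09 (SE) with the replicate block and did not pass (edgeR adjusted p = 0.134). Within terminal effector-like cells it was 0.34 ± 0.14 (edgeR adjusted p = 0.289), and it ran from 0.047 to 0.60 over the alternatives. Within cycling cells it was 0.38 ± 0.11 (edgeR adjusted p = 0.196), and within the Tcf7 Ccr7 group 0.26 ± 0.24 (edgeR adjusted p = 0.786), both with the replicate block. How much of the difference over all cells came with the makeup of the libraries was not tested.

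Il18r1, the ligand-binding chain, was 139 and 106 CPM in WT and 143 and 146 CPM in Bcl3-/- cells. The WT library of chimera 2, the shallowest, was far below the other 3, so the difference came mostly from chimera 2 (log2 0.46, against 0.05 in chimera 1), and in 3 of the 5 T cell groups the chimeras went opposite ways. Over all cells it did not pass (edgeR adjusted p = 0.506 without and 0.0944 with the replicate block). In T cell clusters the log2 fold change passed with the replicate block (0.25 ± 0.08, SE; edgeR adjusted p = 0.0187) and did not without it (0.24 ± 0.14; edgeR adjusted p = 0.506). Leaving out the 4, 14, 4 and 6 cells that had a Cd4 UMI and no Cd8a or Cd8b1 UMI hardly moved the fold changes with the replicate block but moved calls near the threshold both ways. In T cell clusters Il18r1 (0.25, edgeR adjusted p = 0.0721) and Il2rg (−0.22, edgeR adjusted p = 0.0583) then did not pass and Il18rap did, while over all cells Il2rg (−0.22, edgeR adjusted p = 0.0406) and Il12rb1 (−0.29, edgeR adjusted p = 0.0421) passed beside Il18rap. Unlike its partner chain, Il18r1 had its highest mean ratio in the unnamed clusters (log2 ratio 0.36 ± 0.14, SD, above 0 in 4 of 4 libraries). The WT library of chimera 2 was an exception, at 0.18 there and 0.19 in interferon-stimulated cells. In cycling cells the Il18r1 ratio was below 0 in all 4 (−0.34 ± 0.17). In terminal effector-like cells its ratio was −0.24 ± 0.23. Thinned shares in T cell clusters were 14.1%, 10.8%, 13.9% and 15.3%, against 1.90% to 2.68% of B cell-like cells.

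**Figure D3:**
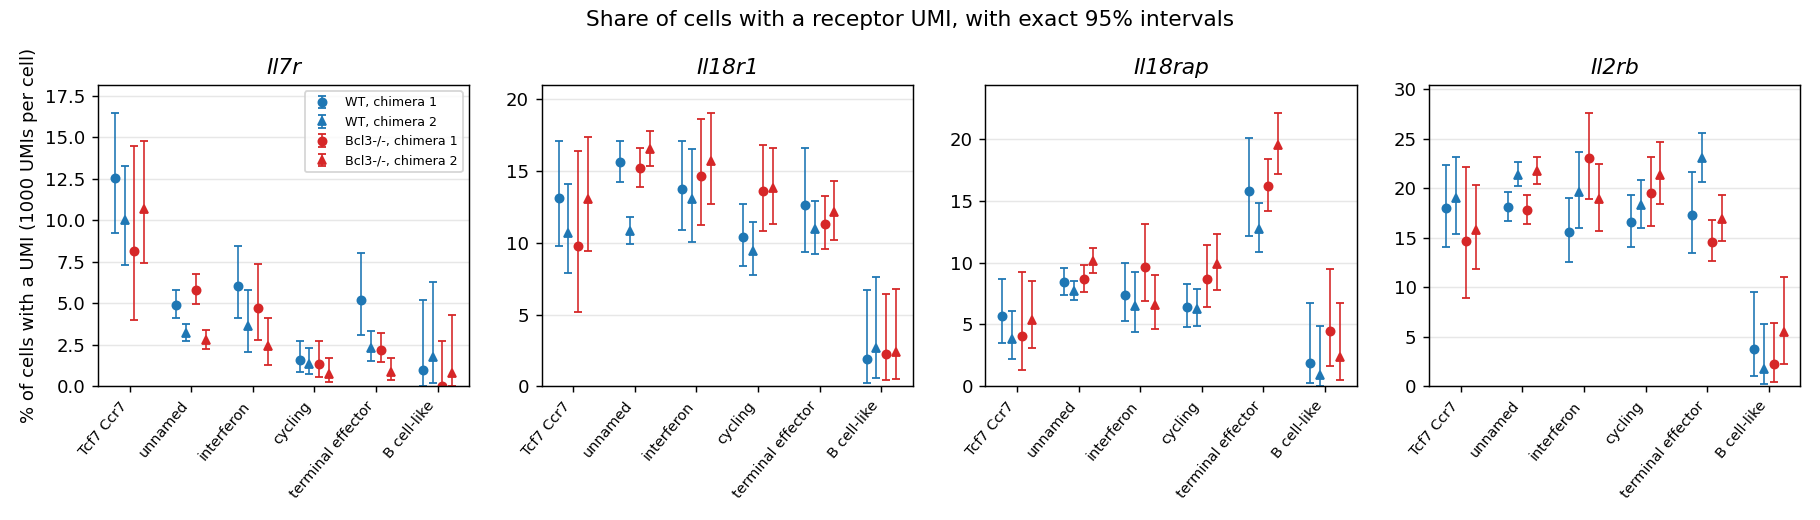
Share of cells with at least 1 UMI of Il7r, Il18r1, Il18rap or Il2rb after thinning to 1000 UMIs per cell (y axis, %), in the 5 T cell groups and in B cell-like cells (x axis). Points are libraries coloured by genotype with exact 95% intervals for counting error only; for all 4 genes the B cell-like cells lie at or below 5.51%, and Il18rap peaks in terminal effector-like cells at 12.7% to 19.5%.

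Il10ra, the ligand-binding chain for the anti-inflammatory cytokine IL-10, was 24.4 and 29.6 CPM in WT and 28.6 and 31.6 CPM in Bcl3-/- cells. The genotypes overlapped, and the difference did not pass (log2 fold change 0.14 ± 0.11, SE; edgeR adjusted p = 0.566). It was above the other T cell clusters in terminal effector-like (log2 ratio 0.37 ± 0.26, SD) and interferon-stimulated cells (0.64 ± 0.53) and below them in cycling cells (−0.53 ± 0.28), in all 4 libraries each. Here and elsewhere, fewer cells that carry a transcript and less of it per cell cannot be told apart in a summed level.

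**Figure D4:**
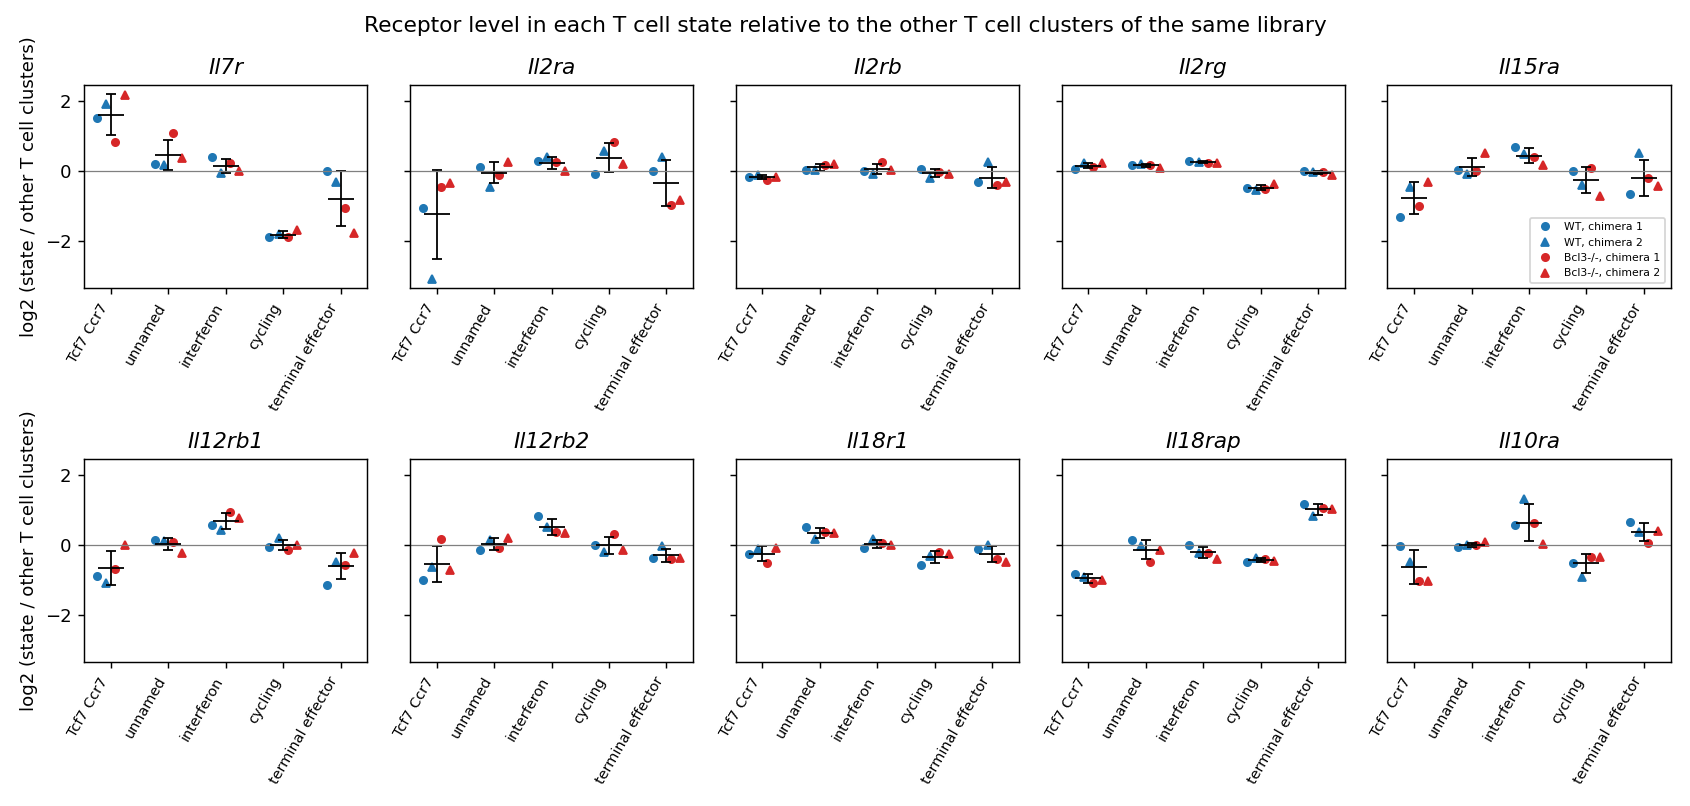
Log2 ratio of each receptor's level in a T cell group over all other T cell clusters of the same library (y axis) by group (x axis); points are libraries (blue WT, red Bcl3-/-, circles chimera 1, triangles chimera 2) and black bars the mean ± SD of 4 libraries. Il7r falls from 1.62 in the Tcf7 Ccr7 group to −1.81 in cycling cells, and Il2rb stays near 0. Il18rap goes from −0.95 in the Tcf7 Ccr7 group to 1.02 in terminal effector-like cells, and is −0.43 in cycling cells.

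The counts of receptor genes called are read here against all genes tested. Over all cells, edgeR without the replicate block called 0 of the 10 beside 0.363% of the 11566 genes tested, and DESeq2 called 0. At an unadjusted p under 0.05 there were 2 of 10 beside 15.6% of all genes. With the replicate block edgeR called 1 of 10 (Il18rap) beside 9.65%, and 6 of 10 beside 24.1% had an unadjusted p under 0.05. The counts in T cell clusters were 0 of 10 beside 0.27% without the replicate block (0 by DESeq2) and 3 of 10 beside 13.5% with it. There 2 of 10 beside 13.8%, and with the block 6 of 10 beside 25.1%, had an unadjusted p under 0.05. In terminal effector-like cells they were 0 of 10 beside 0.631% (0 by DESeq2; 2 of 10 beside 10.8% at an unadjusted p under 0.05) and, with the replicate block, 1 of 10 beside 1.94% (4 of 10 beside 13.8%). In the unnamed clusters they were 0 of 10 beside 0.204% (0 by DESeq2; 2 of 10 beside 10.4% at an unadjusted p under 0.05) and, with it, 2 of 10 beside 7.96% (5 of 10 beside 19.3%).

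No receptor gene passed in the Tcf7 Ccr7 group, where 9 could be tested and edgeR called 0.664% of all genes without and 2.07% with the replicate block. There 0 and 1 of the 9 had an unadjusted p under 0.05, beside 8.36% and 10.9% of all genes, and DESeq2 called 0. Nor did any in cycling cells, beside 0.303% and 1.08% of all genes. There 3 and 5 of the 10 had an unadjusted p under 0.05, beside 8.66% and 13.8% of all genes, and DESeq2 called 0. The test of whether the genotype difference itself differed between Tcf7 Ccr7 and unnamed cells called 0 of 10 beside 0.136%, with 2 of 10 beside 5.40% of all genes at an unadjusted p under 0.05. Those were Il12rb1 (log2 difference 0.87 ± 0.33, SE; edgeR adjusted p = 0.792) and Il10ra (−0.81 ± 0.38; edgeR adjusted p = 0.889). Over all cells 5 of the 10 had positive and 5 negative log2 fold changes, and their median was 0.05 beside 0.01 over all genes tested.

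**Figure D5:**
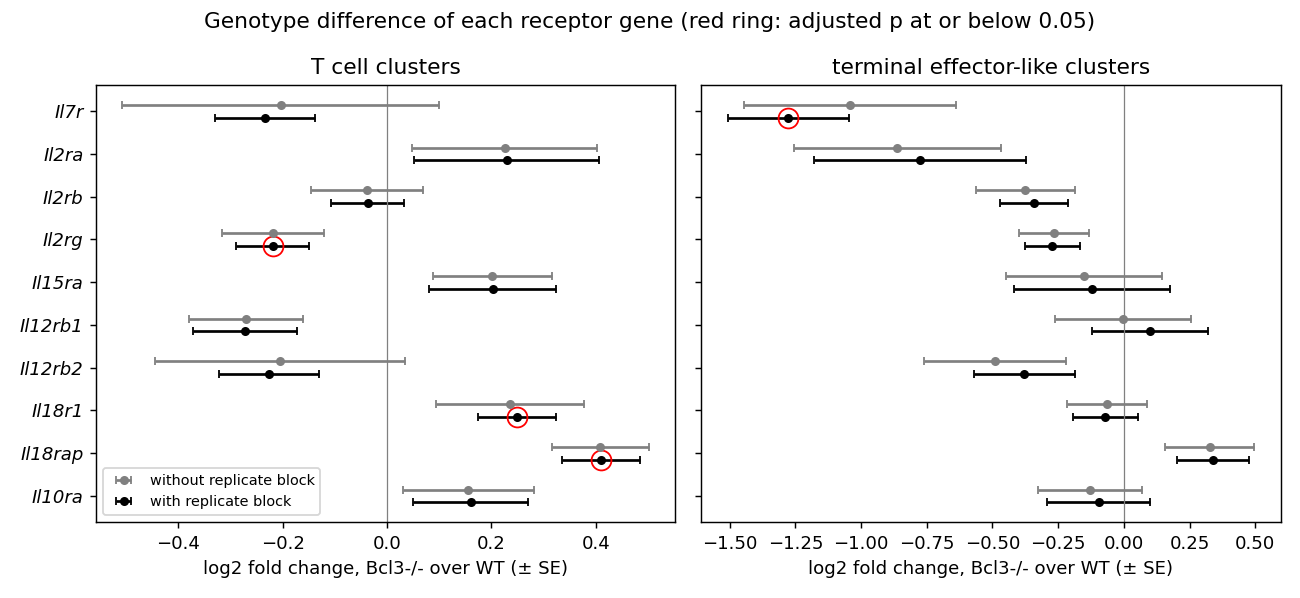
Log2 fold change of Bcl3-/- over WT ± SE (x axis) for the 10 receptor genes (y axis) in T cell clusters (left) and terminal effector-like clusters (right), from edgeR without (grey) and with (black) the chimera as replicate block. Red rings mark adjusted p at or below 0.05: Il2rg, Il18r1 and Il18rap on the left and Il7r on the right, each with the replicate block alone.

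The other genes of these pathways were taken as 6 lists, whose counts with the replicate block stand beside 9.65% of all genes called over all cells and 13.5% in T cell clusters. Jak3, the kinase bound to the gamma chain, was 57.3 and 54.6 CPM in WT and 33.6 and 34.9 CPM in Bcl3-/- cells. The genotypes were far apart, and Jak3 fell in Bcl3-/- cells in edgeR without the replicate block over all cells (log2 fold change −0.73 ± 0.09, SE; edgeR adjusted p = 0.0354) and in T cell clusters (−0.74 ± 0.09; edgeR adjusted p = 0.0380). It was the single gene of the 6 lists of related genes to do so. It lies 855 kb from Il12rb1 on chromosome 8 and overlaps Insl3 on the same strand. With the replicate block Jak1, the kinase that pairs with JAK3 at these receptors, rose over all cells (0.24 ± 0.07, SE; edgeR adjusted p = 0.0344), and Jak3 fell there too. In T cell clusters Stat5b and Stat6 rose as well, with Stat5b at 0.37 ± 0.12 (SE; edgeR adjusted p = 0.0259).

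Among 21 other cytokine receptor genes, 18 could be tested over all cells, and none passed without the replicate block. With it 3 rose (Il21r, Tgfbr2, Il10rb) and 2 fell (Crlf2, Ifngr1), beside 9.65% of all genes called, and in T cell clusters Il1r2 fell too (6 of 17 called, beside 13.5%). Il21r, the IL-21 receptor and a user of the gamma chain, was 20.01 and 24.2 CPM in WT and 31.3 and 52.7 CPM in Bcl3-/- cells, without overlap (0.87 ± 0.11, SE, with the replicate block; edgeR adjusted p = 0.000189). Tgfbr2, which receives TGF-β, was 35.5 and 33.1 CPM in WT and 44.2 and 54.1 CPM in Bcl3-/- cells (0.50 ± 0.10; edgeR adjusted p = 0.00505). Ifngr1, the IFN-γ receptor chain, was 580.1 and 595 CPM in WT and 448 and 495 CPM in Bcl3-/- cells (−0.34 ± 0.07; edgeR adjusted p = 0.00677). The list's median log2 fold change was −0.05 beside 0.01 over all genes.

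Of 15 IL-18 signalling genes, all tested, none passed without the replicate block and 1 fell with it, beside 9.65% of all genes called. That was Nfkbia, which encodes the NF-κB inhibitor IκBα and is itself an NF-κB target, at 188 and 221 CPM in WT and 143 and 183 CPM in Bcl3-/- cells. Its log2 fold change was −0.35 ± 0.07 (SE; edgeR adjusted p = 0.00480) with the replicate block, and its genotypes did not overlap. The list's median was 0.14. Of 11 feedback and negative regulators none passed without it and Il18bp, the soluble IL-18 decoy, fell with it, from 9.9 and 14.5 CPM in WT to 7.3 and 8.6 CPM (−0.62 ± 0.17, SE; edgeR adjusted p = 0.0310). In T cell clusters Socs1, an inhibitor of JAK kinases, fell too (−0.35 ± 0.12; edgeR adjusted p = 0.0365).

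Of 18 genes known as targets of these cytokines, none passed without the replicate block, and with it 4 rose and 2 fell over all cells, beside 9.65% of all genes called. Prf1, the gene of perforin, fell by 1.053 on the log2 scale (± 0.13, SE; edgeR adjusted p = 0.000148), from 47.0 and 33.1 CPM in WT to 18.2 and 20.5 CPM. Without the block its adjusted p was 0.0703 in edgeR. Pim2, a survival kinase, fell as well, and Gzmb, the gene of granzyme B, fell in T cell clusters. Eomes and Tbx21, transcription factors of effector and memory CD8+ T cells, rose (0.48 ± 0.11 and 0.24 ± 0.07, SE), as did Klf2 and Ccnd3. For Eomes the genotypes overlapped, at 20.9 and 14.9 CPM in WT and 32.0 and 19.3 CPM in Bcl3-/- cells. By flow cytometry the paper found less Eomes protein in GP33-specific cells of conditional knockout mice than in controls. Of 12 cytokine ligand genes 5 passed the filter on low counts over all cells and 0 passed the test with or without the replicate block. Il2 rose with it in T cell clusters (0.82 ± 0.17, SE; edgeR adjusted p = 0.00044), at 11.4 and 7.0 CPM in WT and 11.4 and 21.0 CPM in Bcl3-/- cells, levels over all cells that differed in chimera 2 and were equal in chimera 1.

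Likeness of pattern was read over the 20 sums of 5 T cell groups in 4 libraries, which share cells, depth and library makeup. Among 6790 genes the closest to Il7r were ribosomal protein genes, Rpl18 (Pearson r = 0.95), Rpl27a (0.93) and Rps15a (0.92). The closest to Il18r1 were Cnn2 (0.89), Vasp (0.80) and Idh3b (0.77), and the closest to Il2rb were Sipa1 (0.84), Arrb2 (0.80) and Spen (0.78).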

How the data were processed

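Single-cell RNA sequencing was done with the 10x Chromium 3′ kit (version 2). For each library the authors deposited a matrix of unnormalized UMI counts, made with bcl2fastq 2.17 and Cell Ranger 2.2.0 on mm10 per the labels; the annotation release was not given in the sources used here, and 27645 of 27998 gene identifiers matched GENCODE vM21. Cells were filtered and clustered in each library as the study describes, with Seurat 5.3.0 (2000 variable genes less the 10 receptors, 15 components, 20 neighbours, resolution 0.8), no doublet caller was run, and clusters with less than 1% of the cells were dropped. A cluster was named where at least 3 markers of a list were at least 2-fold higher than in other cells and in 10% of its cells, with at least 1 among its 10 leading genes; this rule was set with the clusters in view.

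Counts were summed per library and tested with edgeR 4.0.16 (filterByExpr, TMM, quasi-likelihood) on R 4.3.3, with Benjamini-Hochberg adjustment over all genes tested and a threshold of 0.05; SE is the fold change over the root of F. The study named no block, so the unblocked fit came first. The paper states that WT and Bcl3-/- cells were sorted from the same chimeric animal. Which libraries share an animal was taken from their replicate numbers. The chimera assigned in this way was also fitted as replicate block. The WT and Bcl3-/- differences between chimeras had r = 0.16 over 6863 genes. The fits were tested on simulated data. DESeq2 1.42.0, leaving out libraries and other filters and clusterings were alternatives. All 10 receptor genes are named, and from each list of related genes at most 6 called with or without the block, by the smallest p with it; 1 item of the kinase and STAT list is not reported here. Members and lists were chosen with earlier results of these data known. Intervals are exact (Clopper-Pearson) and, like the floor of 3 counts, cover counting error only.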

Additional observations from a re-analysis of the deposited data

Results flagged for a closer look

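Il10ra and Il2ra were flagged because every Bcl3-/- library was above every WT library in some T cell groups and below in others. How often this happens over all genes was not counted, so it does not set these genes apart. Il10ra did not pass in the Tcf7 Ccr7 group without the replicate block (edgeR adjusted p = 0.757). Il2ra did not pass in terminal effector-like cells without it (edgeR adjusted p = 0.458). For Il10ra the log2 difference of Bcl3-/- over WT, averaged over the chimeras, was −0.59 in the Tcf7 Ccr7 group (23.2 and 21.8 CPM in WT, 13.9 and 16.0 CPM in Bcl3-/-) and 0.47 in cycling cells (17.8 and 17.4 CPM, 22.8 and 26.2 CPM). The difference between those groups was not tested. For Il2ra it was 1.88 in the Tcf7 Ccr7 group, where it rested on 4, 1, 3 and 7 UMIs, 0.34 in unnamed cells and −0.72 in terminal effector-like cells. These differences between groups were not tested either, except Il2ra between Tcf7 Ccr7 and unnamed cells, which did not pass (log2 difference 1.21 ± 0.80, SE; edgeR adjusted p = 0.990).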

How the results depend on the processing

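With the chimera as replicate block the counts of genes called were 1116 over all cells, 1494 in T cell clusters, 143 in the Tcf7 Ccr7 group, 163 in terminal effector-like, 100 in cycling and 820 in unnamed cells, with 1, 3, 0, 1, 0 and 2 receptor genes among them in that order. It changed no other receptor call. DESeq2 called 203, 168, 17, 34, 46 and 77 genes and no receptor gene. Leaving out cells with a Cd4 and no Cd8 UMI, an alternative chosen after seeing the data, gave with the replicate block 1360 genes over all cells (3 receptor genes), 1052 in T cell clusters (1 receptor gene) and 152 in the Tcf7 Ccr7 group. With T cell clusters, 10 genes were called with no filter on low counts and 17 with at most 5% mitochondrial UMIs. In cycling cells 45 were called at resolution 1.2 and 66 with the libraries clustered together, which also gave Il18rap a terminal effector ratio of 1.19. With each library left out in turn, genes called ran from 40 to 228 over all cells, 29 to 190 in T cell clusters, 0 to 118 in the Tcf7 Ccr7 group (0 without the WT library of chimera 1), 13 to 371 in terminal effector-like, 64 to 186 in cycling and 1 to 34 in unnamed cells, and 10 to 24 for the difference between groups. Receptor genes called ran from 0 to 3 in terminal effector-like cells (Il18rap, Il12rb2 and Il2rb without the WT library of chimera 1, Il7r without the WT library of chimera 2 or the Bcl3-/- library of chimera 1) and from 0 to 1 for the difference between groups (Il7r without the Bcl3-/- library of chimera 2). Over all alternatives 28 of the 69 receptor fold changes crossed 0, among them Il7r, Il2rb and Il12rb2 in T cell clusters, Il18r1 in terminal effector-like, Tcf7 Ccr7 and unnamed cells, and Il15ra in terminal effector-like and cycling cells; those of Il18rap, Il2rg and Il2ra crossed in 0 genotype comparisons. The ranges with each library left out in turn also crossed 0, for example for Il7r (−0.74 to 0.20), Il2rb (−0.14 to 0.032) and Il12rb2 (−0.60 to 0.072) over all cells, Il2rb in terminal effector-like cells (−0.66 to 0.0095) and the Il7r difference between groups (−1.03 to 0.38). The Il7r-positive, Klrg1-negative share difference ran from −1.40 to 0.288 points (0.154 without the WT library of chimera 1 and 0.288 without the Bcl3-/- library of chimera 2, each of which breaks a pair), and from −0.652 to −0.421 under other thinning and cells. The causes were not tested. For the receptor genes over all cells, and elsewhere those called under some setting, 205 values kept direction and call, 17 kept direction and passed and 6 changed direction. Of the group ratios, 249 moved by less than the SD and 9 by more. At resolution 0.4 the Bcl3-/- library of chimera 1 had no Tcf7 Ccr7 cluster and the WT library of chimera 1 no terminal effector-like cluster, so those fits gave no value. The few Il2ra UMIs, and 124 cells of the Tcf7 Ccr7 group in 1 library, limit the precision there.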
